A study of Danio rerio with 32 samples.

Results

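A-to-I editing sites of zebrafish chromosome 4 were described in embryos at the 16-cell stage, at 3.5 hours post fertilization (hpf) and at 5.3 hpf. A member was any listed position on chromosome 4 at which the genome of both parents carried A or T and the embryo RNA carried G or C instead (A>G on the forward strand of the genome, or T>C where the edited transcript came from the reverse strand). A site was taken as the same when its position and its change were the same. There were 889 different sites on chromosome 4, of 30154 in all, with 28763 on the other numbered chromosomes and 502 on unplaced scaffolds. The lists held 429 chromosome 4 sites at 16-cell, 470 at 3.5 hpf and 506 at 5.3 hpf.

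Each stage was 1 library from pooled whole embryos of the wild-type ABTL strain, uninjected, with ribosomal RNA removed from total RNA. The embryos were offspring of 1 male and 1 female, whose fin clips gave the genomic DNA, so that every stage shared the same parental genotypes. Since no stage had a replicate, no stage could be compared with another against a spread between samples, and no p-value is given. Shares carry a 95% Wilson interval and medians a 95% order-statistic interval. Both cover counting error only, and sites lie in clusters, so that they are not independent of each other. The lists gave the editing frequency, the percentage of RNA reads that carried the change, but no read number, so that the depth at each site is unknown. The lowest listed frequency was 20%. A site missing from a list may have been unedited, edited in a smaller share of reads, or covered by too few reads.

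ADAR enzymes convert adenosine to inosine in double-stranded RNA, and inosine is read as guanosine in sequencing. Editing typically falls in clusters, because a long RNA hairpin offers many adenosines at once, often where inverted repeats lie within 1 transcript. In the early zebrafish embryo the transcripts are at first those laid down in the egg, and the embryo's own genome becomes active around the mid-blastula transition. Chromosome 4 stands apart in the zebrafish genome. Its long arm is heterochromatic, replicates late, is rich in repeats, and carries large families of zinc finger and NLR-type immune genes in many near-identical copies. Reads from such copies can align to the wrong copy, and a mismatch of any kind can then be listed. The other 10 changes in the same lists were therefore counted beside A>G and T>C throughout. No genome of the build of the files (GRCz10) was used here, so that no sequence is shown.

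Chromosome 4 held few editing sites for its length at every stage. It had 5.57 sites per Mb at 16-cell, 6.10 at 3.5 hpf and 6.57 at 5.3 hpf over a listed span of 77 Mb. At each stage this was the lowest density of the 25 numbered chromosomes, the next lowest being 7.53, 7.72 and 8.05 per Mb on chromosome 24. The other changes were also sparsest on chromosome 4 at 16-cell and 3.5 hpf, with 1.79 and 2.44 per Mb. At these stages the low density was thus not particular to editing sites. At 5.3 hpf the other changes had 7.97 per Mb, the 4th highest density. By the number of editing sites, chromosome 4 came 23rd at 16-cell, 23rd at 3.5 hpf and 22nd at 5.3 hpf. It held 2.24% of the sites of all numbered chromosomes at 16-cell, 2.50% at 3.5 hpf and 2.99% at 5.3 hpf. The list of chromosome 4 was thus longer at each later stage, but not among sites with a frequency of at least 0.3, which numbered 300 at 16-cell, 309 at 3.5 hpf and 297 at 5.3 hpf. Over all listed sites, the ratio of the number at 5.3 hpf to that at 16-cell was 1.18, below 1.22 on chromosome 22 and above that of every other numbered chromosome, which lay between 0.737 and 1.08.

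The lists of other changes differed more between stages on chromosome 4 than those of editing sites did. There were 138 listed positions with another change at 16-cell, 188 at 3.5 hpf and 614 at 5.3 hpf. By this number chromosome 4 was the lowest of the 25 chromosomes at 16-cell, 20th at 3.5 hpf and the highest at 5.3 hpf. The ratio of 5.3 hpf to 16-cell was 4.45 for the other changes on chromosome 4, and the next highest was 1.88 on chromosome 14. The share of A>G and T>C among all listed mismatches on chromosome 4 was therefore 75.7% at 16-cell (429 of 567, 72.0 to 79.0), 71.4% at 3.5 hpf (470 of 658, 67.9 to 74.7) and 45.2% at 5.3 hpf (506 of 1120, 42.3 to 48.1). On the other numbered chromosomes together the share was 77.4%, 77.0% and 67.7% at these stages. Chromosome 4 was 18th, 21st and last by this share. At 5.3 hpf the lowest of the others was chromosome 22 with 55.7% and the highest chromosome 20 with 73.8%.

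C>T and G>A, the transitions that ADAR does not make, gave a narrower background. There were 8.76 editing sites for each such mismatch on chromosome 4 at 16-cell, 7.58 at 3.5 hpf and 2.43 at 5.3 hpf. On the other chromosomes the ratio was 13.4, 13.4 and 7.39.

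**Figure D1:**
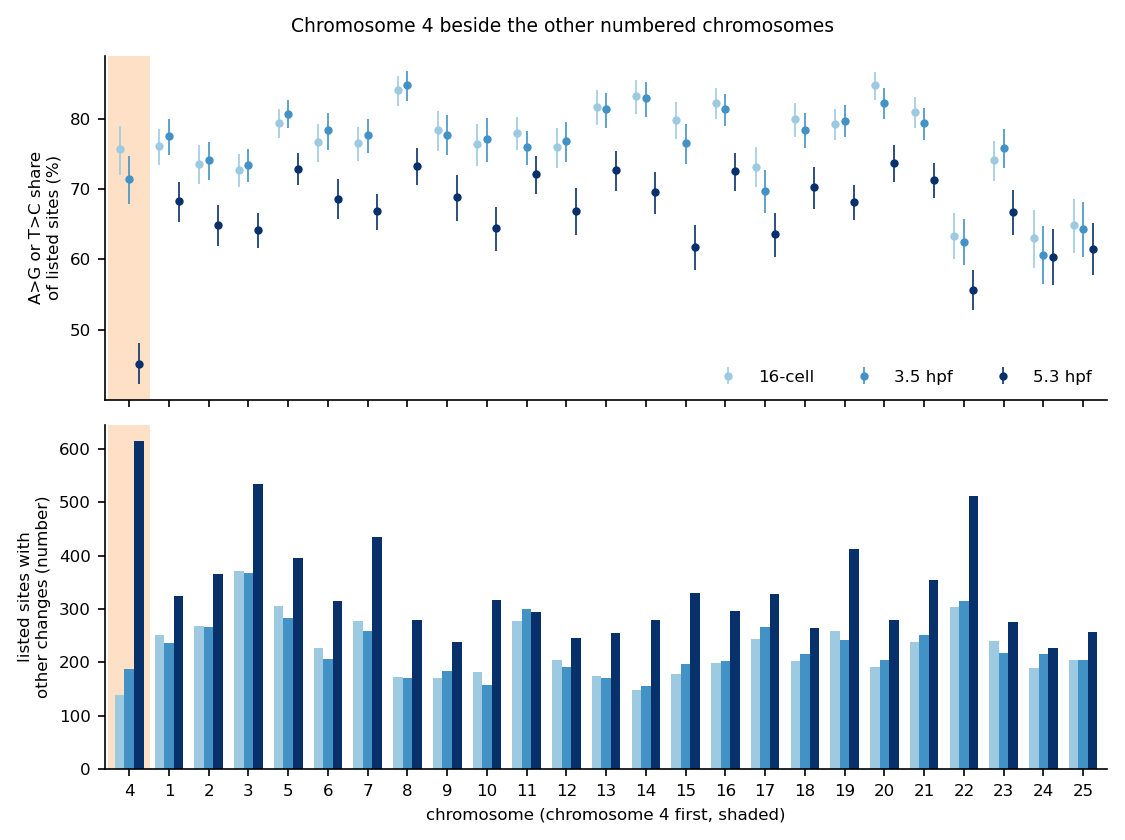
Share of A>G or T>C among listed mismatches in percent with its 95% Wilson interval (upper panel) and number of listed sites with any other change (lower panel), for each numbered chromosome and stage, chromosome 4 first and shaded. At 5.3 hpf chromosome 4 had the lowest share (45.2%) and the most other mismatches (614).

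The editing sites were unevenly spread along the chromosome. At 16-cell, 214 sites lay below 27 Mb, taken here as the approximate start of the long arm, 20 lay between 27 and 70 Mb and 195 from 70 Mb to the end of the listed span. At 3.5 hpf the numbers were 236, 38 and 196, and at 5.3 hpf 177, 176 and 153. The first and the last stretch had fewer sites at 5.3 hpf than at 16-cell, and the middle stretch had more. The limit at 70 Mb was set after the profile had been seen, so that the contrast between the middle and the last stretch is a description of these lists. Per Mb, the last stretch was the densest, with 27.9 sites at 16-cell, 28.0 at 3.5 hpf and 21.9 at 5.3 hpf, while the middle stretch had 0.465, 0.884 and 4.09.

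Mismatches of every kind were listed across the middle stretch at 5.3 hpf. A>G or T>C sites were listed in 8 of its 43 bins of 1 Mb at 16-cell, in 15 at 3.5 hpf and in 35 at 5.3 hpf. Over the same stages its other changes numbered 28, 66 and 390. The share of A>G and T>C there was 41.7% (28.8 to 55.7) at 16-cell, 36.5% (27.9 to 46.1) at 3.5 hpf and 31.1% (27.4 to 35.0) at 5.3 hpf. At 5.3 hpf the most frequent changes in that stretch were A>G with 93 positions, T>C with 83, C>T with 79, G>A with 55 and A>T with 50. Editing sites thus outnumbered C>T and G>A by 1.31 to 1 there, against 4.21 below 27 Mb and 4.78 from 70 Mb. The share of A>G and T>C at 5.3 hpf was 55.7% (50.2 to 61.0) below 27 Mb and 64.8% (58.5 to 70.6) from 70 Mb. Whether the sites of the middle stretch were edited RNA or misplaced reads was not tested.

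**Figure D2:**
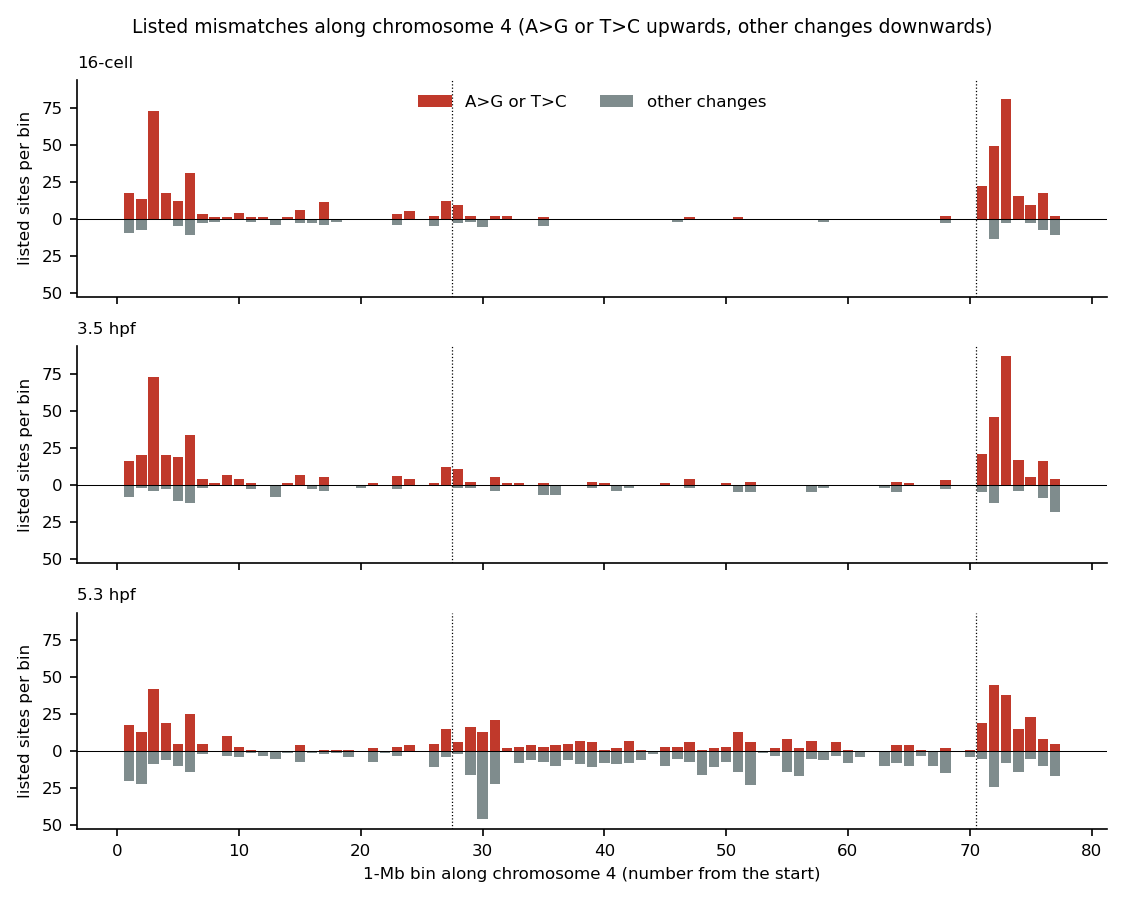
Number of listed sites in each 1-Mb bin along chromosome 4 at each stage (panels in order of age), with A>G or T>C drawn upwards and all other changes downwards. Dotted lines mark the limits between the first, middle and last stretch. Sites at 16-cell and 3.5 hpf lay mostly near the ends, and at 5.3 hpf mismatches of both kinds were listed in most bins between.

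In 52 of the 77 bins the other changes outnumbered the editing sites at 5.3 hpf, against 18 of 77 at 16-cell. Any mismatch at all was listed in 72 bins at 5.3 hpf and in only 45 at 16-cell, and an empty bin could not be counted. The 52 bins were 67.5% of the chromosome, the highest share of the 25, followed by 52.6% on chromosome 9.

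The bins with the most different sites all lay in the first and the last stretch. The bin from 72 to 73 Mb led with 127 sites, of which 81 were listed at 16-cell, 87 at 3.5 hpf and 38 at 5.3 hpf. The bin from 2 to 3 Mb held 98 (73, 73 and 42 at these stages), and that from 71 to 72 Mb held 78 (49, 46 and 45). In each of these the list at 5.3 hpf was the shortest. The bin from 5 to 6 Mb held 47 (31, 34 and 25) and that from 1 to 2 Mb held 34 (13, 20 and 13). The bin from 74 to 75 Mb ran the other way, with 9, 5 and 23 of its 36 sites.

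Few chromosome 4 sites were found at every stage, and many at 5.3 hpf alone. At all stages 178 of the 889 were listed, 20.0% (17.5 to 22.8), while 30.8% of the 29652 sites of all numbered chromosomes and 31.1% of those on the other chromosomes were. At 5.3 hpf alone 292 were listed, 32.8% (29.8 to 36.0), where the percentage over all numbered chromosomes was 19.2% and over the others 18.8%. The first share was the lowest of the 25 chromosomes and the second the highest, though chromosome 22 was close with 32.2% at 5.3 hpf alone. At 16-cell and 3.5 hpf 124 sites were shared, 13.9% beside 16.4% over all numbered chromosomes. At 16-cell alone 115 were listed, 12.9% beside 14%, and at 3.5 hpf alone 144, 16.2% beside 12.5%. Only 12 were shared by 16-cell and 5.3 hpf without 3.5 hpf, 1.35% beside 3.42%, and 24 by 3.5 and 5.3 hpf, 2.7% beside 3.64%.

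The stage pattern differed along the chromosome. From 27 Mb to the end, the planned stretch, 228 of 535 sites, 42.6% (38.5 to 46.8), were listed at 5.3 hpf alone. At all stages 86 were, 16.1% (13.2 to 19.4). In the middle stretch, whose limit at 70 Mb was set after the profile by stage had been seen, 164 of 208 were listed at 5.3 hpf alone. This was 78.8% (72.8 to 83.8), and 8 were listed at all stages, 3.85% (1.96 to 7.40). Below 27 Mb 64 of 354, 18.1% (14.4 to 22.4), were listed at 5.3 hpf alone and 92, 26% (21.7 to 30.8), at all stages. From 70 Mb 64 of 327, 19.6% (15.6 to 24.2), were listed at 5.3 hpf alone and 78, 23.9% (19.6 to 28.8), at all stages. In the first and last stretch the share at 5.3 hpf alone was thus near that of the other chromosomes, and the share at all stages was below it. The other changes in the middle stretch were also mostly listed at 5.3 hpf alone: 352 of 437 such positions, 80.5% (76.6 to 84.0). Their share at 5.3 hpf alone was higher than that of editing sites elsewhere too. It was 51.4% below 27 Mb, 48.5% from 70 Mb and 39.7% on the other chromosomes.

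**Figure D3:**
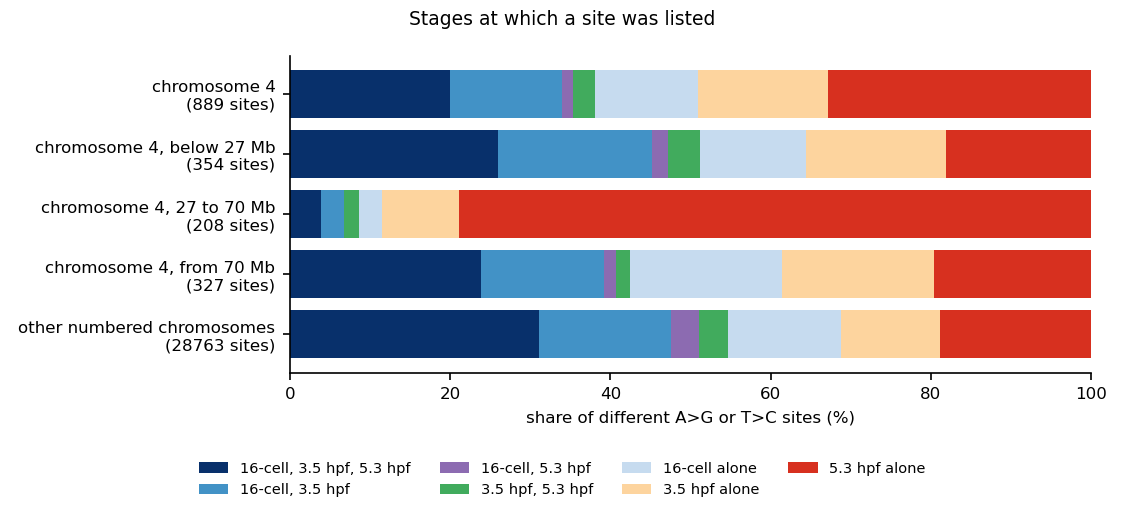
Stages at which each different A>G or T>C site was listed, as a share of the sites in percent, for chromosome 4, for its 3 stretches and for the other numbered chromosomes. From 27 to 70 Mb 78.8% of sites were specific to the list of 5.3 hpf, and on the other chromosomes 18.8%. The limit at 70 Mb was set after the profile had been seen.

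Editing sites on chromosome 4 lay in clusters early on and less so at 5.3 hpf. Another site of the same change lay within 100 bp of 87.6% (84.2 to 90.4) of sites at 16-cell, 86.4% (83.0 to 89.2) at 3.5 hpf and 65.0% (60.8 to 69.0) at 5.3 hpf. On the other chromosomes these shares were 90.6%, 90.4% and 84.7%, and chromosome 4 was 23rd, 22nd and last of the 25. The share at 5.3 hpf was 78.0% (71.3 to 83.4) below 27 Mb, 43.8% (36.6 to 51.1) from 27 to 70 Mb and 74.5% (67.1 to 80.8) from 70 Mb. Listed mismatches of other changes were seldom clustered, at 14.7% on chromosome 4 and 19.1% on the other chromosomes at 5.3 hpf.

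Mismatches of another change also lay close to editing sites more often at 5.3 hpf. Such a mismatch lay within 100 bp of 8.86% (6.52 to 11.9) of chromosome 4 editing sites at 16-cell, 13.2% (10.4 to 16.6) at 3.5 hpf and 20.9% (17.6 to 24.7) at 5.3 hpf. On the other chromosomes it was 11.9%, 11.3% and 13%. In the middle stretch it was 29.5% (23.3 to 36.7) at 5.3 hpf. Below 27 Mb it was 10.3%, 15.7% and 15.8% by stage, and from 70 Mb 7.18%, 8.67% and 17.0%. The other changes on chromosome 4 themselves numbered 138, 188 and 614 by stage, and the shares were not adjusted for this.

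Joined at 100 bp, the 889 sites formed 336 clusters, of which 217 held a single site. These were 64.6% of the clusters, the highest share of the 25 chromosomes, followed by 60.9% on chromosome 25 and 58.3% on chromosome 22. At the other end, 15 clusters of 10 or more sites held 264 sites between them. In the middle stretch 112 of 139 clusters were single sites. Over the whole chromosome, 178 clusters were listed at 5.3 hpf alone, and 144 of them were single sites. The 178 were 53.0% of the clusters, where the other chromosomes had a median of 29.4% and at most 40.8%, on chromosome 25.

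The largest clusters were dense runs. The first held 44 A>G sites over 573 bp from position 2736801 to 2737373, in the 3′-UTR window of bcap29, with 42 listed at 16-cell, 31 at 3.5 hpf and 23 at 5.3 hpf. Its median frequency was 46.7%, 47.1% and 30% at these stages. Next came a pair of neighbouring T>C clusters in no listed gene window, 31 sites from 72118034 to 72118383 (27, 23 and 17 by stage) and 30 sites from 72117211 to 72117595 (25, 19 and 7). The cluster in the trim24 window, 72729873 to 72730081, held 20 sites (6, 17 and 2). The cluster in the zgc:113209 window, 74841604 to 74842020, held 19 sites, all of them at 5.3 hpf and none at the earlier stages. A T>C cluster from 5357311 to 5357681 held 18 sites (12, 13 and 13). An A>G cluster of 14 sites from 72342448 to 72342543 had 10 and 13 at the earlier stages and none at 5.3 hpf. The cluster in the zdhhc17 window, 2579476 to 2579729, held 13 (9, 10 and 5). Another T>C cluster of 13 sites, from 4558631 to 4558708, tied with it in size and had 6 and 10 at the earlier stages and none at 5.3 hpf. Positions are those of GRCz10 as the lists give them. Whether they count from 0 or from 1 could not be settled, so that they may be off by 1 base.

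Genes were assigned through the intervals of GRCz10 that the study lists, 26 windows of 5000 bp over 3′-UTRs and 3 coding intervals on chromosome 4, belonging to 28 genes. The study chose these genes because they held editing sites in the same libraries, so that the presence of sites in each is no finding. Names were compared with RefSeq, where 27 of the 28 transcripts were found, all on chromosome 4. The intervals held 300 of the 889 sites, 33.7% (30.7 to 36.9), and 589 lay in none of them. By stage the share was 44.8% (40.1 to 49.5) at 16-cell, 43.2% (38.8 to 47.7) at 3.5 hpf and 26.9% (23.2 to 30.9) at 5.3 hpf. It was 51.7% below 27 Mb, 7.69% from 27 to 70 Mb and 30.9% from 70 Mb.

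In the listed gene windows most sites matched the strand of the gene. Of the sites in the 3′-UTR windows, 286 had the change that editing of that gene's own transcript would give and 6 the opposite one. The 286 are not independent, 62 of them lying in the bcap29 window alone. Whether the study's choice of genes took the strand into account is not known here. The windows of zgc:162948 and zgc:174310 overlap, and all 5 sites of the zgc:174310 window were counted in each. At 5.3 hpf fewer sites were listed than at 16-cell in 17 of the 26 windows, more in 6 and as many in 3. A gene could enter the study's list through a single stage of these libraries, so that this tally depends partly on that choice. It was not set beside windows on other chromosomes. The roles named below are those known from mammalian counterparts, and no role is given for genes known by a clone or zgc name alone.

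The window of bcap29, which encodes a membrane chaperone of the endoplasmic reticulum, held more sites than any other listed on chromosome 4. It had 63 sites, of which 52 were listed at 16-cell, 45 at 3.5 hpf and 29 at 5.3 hpf. Their median frequency was 46.7% at 16-cell, 37.5% at 3.5 hpf and 27.8% at 5.3 hpf, so that both the number and the frequency were lowest at 5.3 hpf.

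Other windows of genes of membrane traffic and lipid modification had smaller numbers. cog5, a subunit of the Golgi tethering complex COG, had 9 sites at 16-cell, 16 at 3.5 hpf and 5 at 5.3 hpf. zdhhc17, a palmitoyltransferase, had 12, 12 and 7. cerk, which encodes ceramide kinase and was the only listed 3′-UTR window between 27 and 70 Mb, had 9, 11 and 6. The window labelled si:ch211-244b2.1, named scyl2 in RefSeq after a factor of clathrin-coated vesicles, had 12, 12 and 13 sites and was the steadiest of these, with median frequencies of 29.3%, 29.0% and 25.9%. In cog5, zdhhc17 and cerk, as in bcap29, the list at 5.3 hpf was the shortest.

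Windows of the other named genes differed in which stage led. lyrm5a, a small mitochondrial protein of the LYR family, had 11 sites at 16-cell and 11 at 3.5 hpf, with median frequencies of 47.1% and 46.2%, and none at 5.3 hpf. trim24, a chromatin reader and ubiquitin ligase, had 6, 17 and 2. klhdc10, a Kelch-repeat adaptor of a ubiquitin ligase, had 5, 6 and 3. dclre1c, the DNA repair nuclease Artemis, had 3 at each stage, and none of its 9 different sites was shared by all stages. With 7 sites, klhdc10 tied with zgc:172139 and zgc:162948 and was taken for its position.

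Among the windows of genes without an assigned role, zgc:152938 had 18 sites at 16-cell, 16 at 3.5 hpf and 10 at 5.3 hpf, and its median frequency was 40.1%, 38.8% and 48.8%. zgc:113209 ran the other way, with 2 sites at 16-cell, none at 3.5 hpf and 19 at 5.3 hpf, where the median frequency was 33.3%. All 19 were listed at 5.3 hpf alone, and no mismatch of another change was listed in that window at any stage. Of the 11 windows described, it was the one in which the count at 5.3 hpf was highest by more than 1 site.

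The smaller windows held between 2 and 7 sites each. In 4 of them, those of zgc:113119, creb3l2 (an endoplasmic reticulum-bound transcription factor), nudt4b (a hydrolase of inositol pyrophosphates) and gas2l3 (a linker of actin and microtubules), both earlier stages had sites and 5.3 hpf had none. fam60a, a subunit of the SIN3 histone deacetylase complex named sinhcaf in RefSeq, had 5 sites at 16-cell and none later. The windows of zgc:153116 and zgc:194209 had 3 and 2 sites at 5.3 hpf and none before. All other smaller windows had sites at every stage. By stage znf800b had 5, 5 and 5, zgc:162948 6, 5 and 5, and zgc:174310 4, 4 and 4. slc35e3 had 5, 4 and 4, tmem168a 3, 4 and 5, sobpb 4, 4 and 2, and zgc:172139 2, 4 and 3.

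In coding intervals, zgc:152938 had 6 sites at 16-cell, 8 at 3.5 hpf and 7 at 5.3 hpf over 85 bp, with median frequencies of 44.4%, 34.5% and 45.3%. zgc:173720 had 2, 1 and 0. The interval of pou3f2a, a POU-domain transcription factor of the nervous system, held 2 sites at every stage, with median frequencies of 100%, 100% and 82.1%. At each stage 8 mismatches of other changes were listed in that same interval, more than the editing sites, and their part in the value was not tested.

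**Figure D4:**
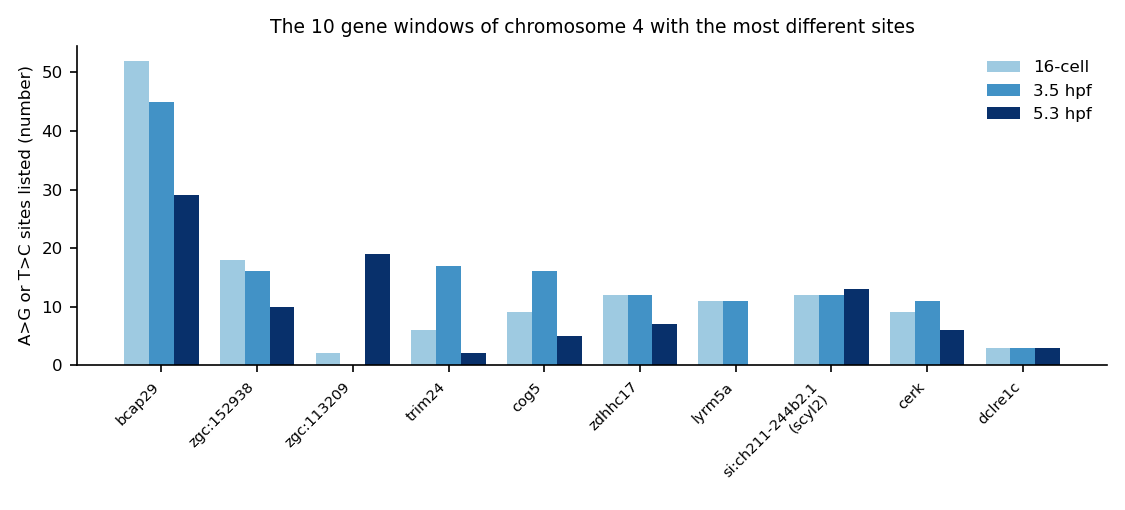
Number of A>G or T>C sites listed at each stage in the 10 gene windows of chromosome 4 with the most different sites. bcap29 led with 52, 45 and 29 sites, and zgc:113209 had 2, 0 and 19.

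Editing frequency on chromosome 4 was lower at 5.3 hpf than at the earlier stages. The median over all listed sites was 40% (35.9 to 43.5) at 16-cell, 37.5% (35.2 to 40) at 3.5 hpf and 31.9% (30.4 to 33.3) at 5.3 hpf. On the other chromosomes it was 37.5%, 37.5% and 35.7%. At 16-cell chromosome 4 came after chromosome 22, level with chromosomes 15 and 23. It was 12th at 3.5 hpf, level with chromosomes 1, 11 and 13. At 5.3 hpf it was last, and chromosome 13 was next with 32.4%. Sites listed at 5.3 hpf alone had a median of 30% (28.6 to 31.2). Those listed at 16-cell alone had 28.6% (25.9 to 31.6) and those at 3.5 hpf alone 27.3% (25 to 31.0), so that this low value was not particular to 5.3 hpf.

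The difference was also present at the same positions, most of all in a pair of short blocks. The 178 sites of all stages had a median of 50.0% at 16-cell, 52.3% at 3.5 hpf and 37.7% at 5.3 hpf. Such sites on the other chromosomes had 46.1%, 46.5% and 43.2%. Between 16-cell and 3.5 hpf the median difference was −0.79 percentage points (−2.78 to 0.28). Between 16-cell and 5.3 hpf it was −8.42 points (−12.8 to −4.84), with 124 sites lower, 51 higher and 3 equal at 5.3 hpf. On the other chromosomes the difference between 16-cell and 5.3 hpf was −1.75 points. Along chromosome 4 it was −10.3 points (−16.7 to −5.71) below 27 Mb, with 72 sites lower and 18 higher. From 70 Mb it was −7.38 points, with an interval that reached above 0 (−12.8 to 0.10), 47 sites lower and 30 higher. The middle stretch had only 8 such sites (−2.48 points, −15.1 to 17.3). The pair of blocks, described below, held 24 of the 92 sites below 27 Mb and 24 of the 78 from 70 Mb. In these blocks 50 of the 54 sites listed at both 16-cell and 5.3 hpf were lower at 5.3 hpf. Outside them 82 of 136 were, a share near that on the other chromosomes, where 5041 of the 8946 sites of all stages were lower. The latter sites had to be listed at 3.5 hpf as well, so that the sets differ. The blocks themselves had median differences of −29.6 and −21.7 points. The medians of chromosome 4 include them and are not given without them, so that their weight is not shown.

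Of the 190 sites listed at both 16-cell and 5.3 hpf, 57 were lower by at least 20 points at 5.3 hpf, 30% (23.9 to 36.9), where 8.31% of such sites on all numbered chromosomes and 7.89% on the others were. The share was the highest of the 25 chromosomes, and chromosome 22 was next with 15.1%. The lowest listed frequency was 20%, so that a site near it at 16-cell could not be lower by 20 points and stay listed. The share thus depends on the frequency at 16-cell, which was not matched between chromosomes. Only 6 of the 190 were higher by at least 20 points, 3.16% (1.46 to 6.72) beside 3.75% over all numbered chromosomes. Between 16-cell and 3.5 hpf the 302 shared sites gave 17 lower and 16 higher, 5.63% and 5.30%, where the percentages over all numbered chromosomes were 3.6% and 4.25%. From 3.5 to 5.3 hpf 53 of 202 were lower, 26.2% (20.7 to 32.7) beside 8.17%, and 8 were higher, 3.96% beside 3.37%.

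Most of the 57 lower sites came from a pair of short stretches. Sites of 1 change less than 1000 bp apart were joined into blocks, a step added after the values had been seen. A T>C block of 76 sites over 1606 bp, from 72116778 to 72118383, had 18 of its 27 shared sites lower by 20 points or more. The bcap29 block, 62 A>G sites over 1520 bp from 2735854 to 2737373, had 16 of 27. Together they held 34 of the 57. Without them 23 of 136 sites remained, 16.9% (11.5 to 24.1). With its own leading pair of blocks taken out of every chromosome in the same way, chromosome 4 was still the highest, and chromosomes 13 and 22 were next with 10.3% each. The median difference was −29.6 points in the T>C block and −21.7 in the bcap29 block.

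**Figure D5:**
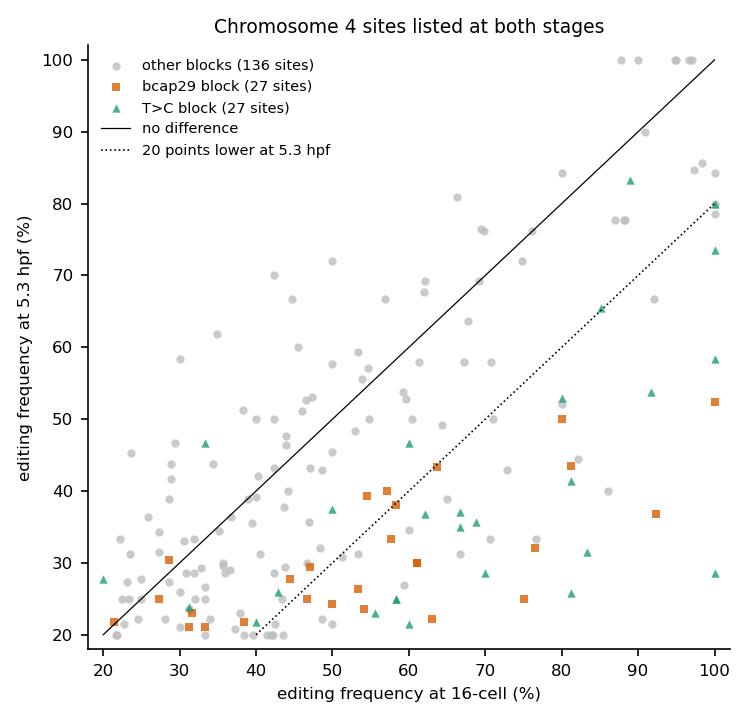
Editing frequency in percent at 16-cell (horizontal) and 5.3 hpf (vertical) of the 190 chromosome 4 sites listed at both stages, each point being 1 site. Points under the solid line were lower at 5.3 hpf, and those on or under the dotted line by at least 20 points; the T>C block holds 18 of these and the bcap29 block 16.

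Among sites of all stages, the 5 with the largest negative difference between 16-cell and 5.3 hpf lay in these blocks. The site at 72116841 had a frequency of 100% at 16-cell, 84.6% at 3.5 hpf and 28.6% at 5.3 hpf. In the bcap29 window, 2736834 had 92.3%, 88.9% and 36.8%, and 2736990 had 75.0%, 46.2% and 25%. The T>C sites 72118083 and 72118377 had 81.2%, 80% and 25.8%, and 83.3%, 72.2% and 31.6%. In 4 of these 5 sites the step between 3.5 and 5.3 hpf was larger than that between 16-cell and 3.5 hpf, the exception being 2736990.

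The 5 largest positive differences were smaller and lay apart from each other. The site at 70912212 had 30% at 16-cell, 71.4% at 3.5 hpf and 58.3% at 5.3 hpf, and 3324506 had 42.3%, 36.2% and 70%. The site at 76322675 had 34.9%, 50.3% and 61.8%, and 25766536 had 50.0%, 68.4% and 72.0%. In the 3′-UTR window of zgc:152938, 71405150 had 44.7%, 32.0% and 66.7%. These 5 differences ran from 22.0 to 28.3 points, and the 5 negative ones from −71.4 to −50.0 points.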

How the data were processed

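Sites were taken from the deposited lists of the 3 offspring libraries, 1 for each stage, of the 32 samples of the series. Each list gives a position, the change and its frequency, a fraction of RNA reads that the authors computed and that is printed here as a percentage. Per the labels, reads were trimmed with cutadapt 2.4 and aligned to GRCz10 with STAR 2.7.7a, with SAMtools 1.11. The study's methods add that the authors called mismatches with REDiscover, kept positions homozygous in both parents with a single alternative base, and set minimums for read number, mapping quality, base quality and frequency. No removal of repeats is stated. Depth per site is unknown. The lists were matched to the stages by the stage in their names. The other deposited tables hold the authors' own gene expression comparisons and were not used.

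Counts, shares, medians and clusters were computed with Python 3.11.15, pandas 2.3.3, numpy 2.4.6 and scipy 1.17.1, and figures drawn with matplotlib 3.10.9. The scripts were tested on simulated lists. Density was taken over the span to the last 1-Mb bin with a listed mismatch of any change. No test was run between stages or chromosomes, ranks being descriptions. The gene intervals came from the study's supplementary list as annotation alone, its counts not being read, and names from the RefSeq table of another assembly. The rule for the text named the 12 windows, of which 1 is not reported here, 6 bins and 8 clusters with the most different sites, and the 5 largest differences in frequency in each direction among sites of all stages. A cluster tied with the last of these was chosen, and the smaller windows were grouped by stage, after their values were seen. Members and lists were chosen with earlier results of these data known. Alternatives were a frequency of at least 0.3, each cluster counted once, distances of 50 and 500 bp, A>G or T>C alone, a limit at 24 or 30 Mb, differences of 10 and 30 points, the gene's strand alone, and the other changes as the denominator. The limit at 70 Mb, the blocks, and the frequencies below 27 Mb alone were added after seeing the data. A check of the bases beside each site could not be run without the genome.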

Additional observations from a re-analysis of the deposited data

Results flagged for a closer look

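The lists also held sites outside the numbered chromosomes, which the comparisons above did not use. There were 502 different A>G or T>C sites on 88 unplaced scaffolds, with 281 at 16-cell, 321 at 3.5 hpf and 237 at 5.3 hpf. Whether any of these scaffolds belongs to chromosome 4 was not tested.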

How the results depend on the processing

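No paired analysis was possible because each stage had 1 library. Depth per site is unknown, so that a list's length could not be set against coverage, and every contrast between stages is one between 3 libraries. Of 107 alternative values, 51 stayed within 1.5 times the count or within the interval of the value given above. Some of the rest had to move by their definition. A>G or T>C alone keeps only part of the sites, and a higher lowest frequency drops sites and raises the median. The ratio to the other changes is on another scale than sites per Mb. The 51 is therefore no measure of how stable the results were. With a frequency of at least 0.3 the sites numbered 309 at 3.5 hpf and 297 at 5.3 hpf, and the density was 3.90, 4.01 and 3.86 per Mb by stage, so that 5.3 hpf was no longer the densest. The median frequency was then 50.0%, 50.3% and 43.8%, the A>G and T>C share 80.2% at 16-cell and 75.0% at 3.5 hpf, and the share at 5.3 hpf alone 29.6%, below chromosome 22 with 31.2%. With each cluster counted once, the sites numbered 122, 137 and 255 by stage, 2.81%, 3.21% and 4.98% of those on numbered chromosomes, with a density of 1.58, 1.78 and 3.31 per Mb. The density at 5.3 hpf was then 19th of the 25 chromosomes. The A>G and T>C share was 49.2%, 44.2% and 31.0%, still the lowest at 5.3 hpf but close to 31.3% on the next chromosome. The share from 27 Mb at 5.3 hpf was 71.4%, and 53.0% of clusters were listed at 5.3 hpf alone, beside a median of 29.4% on the other chromosomes.

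A>G alone gave 210, 246 and 267 sites by stage and 2.73, 3.19 and 3.47 per Mb. Its percentage of the sites on numbered chromosomes was 2.77% at 3.5 hpf and 3.28% at 5.3 hpf, and its clustered share at 16-cell 90.5%. The share from 27 Mb was 38.1% at 16-cell and 58.8% at 5.3 hpf. T>C alone gave 219, 224 and 239 sites and 2.84, 2.91 and 3.10 per Mb. Its percentage of the sites on numbered chromosomes was 2.26% at 3.5 hpf and 2.72% at 5.3 hpf. The share from 27 Mb was 61.6% at 16-cell and 72.0% at 5.3 hpf. With A>G alone, chromosome 4 was 24th by density and by clustered share at 5.3 hpf, and 24th by its share at all stages. It was next to the highest by its share at 5.3 hpf alone, where another chromosome had 38.6%. By median frequency at 5.3 hpf chromosome 4 was 17th with A>G alone and last with T>C alone. Set against the other changes, there were 3.11, 2.50 and 0.824 editing sites for each such mismatch by stage, a ratio that was 18th of the 25 chromosomes at 16-cell and last at 5.3 hpf. With a limit at 30 Mb, 58.1% of the sites at 5.3 hpf lay beyond it, against 65.0% with 27 Mb. Within 500 bp, 90.9% of sites at 16-cell were clustered. Sites lower at 5.3 hpf were 46.8% with a difference of at least 10 points, 15.8% with 30 points and 16.9% without the pair of blocks that held most of them. Chromosome 4 had the highest of the 25 shares under each of these. Below 27 Mb alone the median frequency was 34.7% at 3.5 hpf and 30% at 5.3 hpf.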
